A study of Mus musculus with 32 samples.

Results

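The adult globin genes Hba-a1, Hba-a2, Hbb-bs and Hbb-bt, together with Alas2 and Slc4a1, were chosen by name as genes of the red cell lineage, so they make up 6 of the 54446 genes counted. They were followed in 32 libraries of bulk RNA from BNL-MEA tumours. BNL-MEA is a single murine liver cancer line, and its cells were injected under the capsule of the left liver lobe of BALB/c mice, a place where host liver and blood surround the tumour. The mice were randomized 5 days after injection. Treatment lasted 5 days in the regorafenib and DC-101 comparisons, while the day on which tumours of the anti-PD1 experiment were taken is not given in the sources used here. All groups carried the same tumour line in the same host strain, and every treated group had vehicle-treated tumours from its own experiment as controls. The dose experiment compared vehicle (4 libraries) with the multikinase inhibitor regorafenib by gavage at 5 mg/kg/day (low dose, 3 libraries) and at 20 mg/kg/day (high dose, 3 libraries). The DC-101 experiment compared vehicle (4 libraries) with low dose regorafenib (3 libraries) and with DC-101, a murine antibody against VEGFR2, the main receptor of the vascular growth factor VEGF, injected into the peritoneum at 800 µg on days 1, 3 and 5 (3 libraries). The anti-PD1 experiment had 3 libraries each of vehicle, of low dose regorafenib, of an antibody to PD1, a checkpoint receptor on T cells, and of both agents together, with regorafenib at 5 mg/kg/day. Animal ages, the number of animals behind a library and the pooling of animals are not given in the labels. The study describes the libraries within each group of the anti-PD1 experiment as separate tumours. For the other experiments the labels do not say so, and p-values there measure the spread between libraries, which may be in part technical.

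Haemoglobin is built from pairs of alpha and beta chains, each of which holds a haem group. Hba-a1 and Hba-a2 encode the adult alpha chain, and Hbb-bs and Hbb-bt the adult beta chains of the reference mouse strain. Alas2 encodes the erythroid form of 5-aminolevulinate synthase, the first enzyme of haem synthesis, and Slc4a1 encodes band 3, the anion exchanger that anchors the red cell skeleton to the membrane. Reticulocytes, the youngest circulating red cells, have no nucleus but still carry globin mRNA, and this is why globin transcripts are found in bulk RNA of any tissue that holds blood. In bulk RNA, fewer cells of a type and less RNA per cell cannot be told apart. BALB/c mice carry another beta globin haplotype (Hbb-d) than the reference genome (Hbb-s), and how its reads divided between the reference genes was not tested.

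The libraries held 16.8 M to 27.7 M counts each. The 4 globins together took 0.00197% to 0.0798% of the counts in 31 libraries, and 0.227% (51345 counts) in vehicle replicate 1 of the DC-101 experiment. That library and vehicle replicate 4 of the dose experiment stood apart from the other vehicle libraries of their experiments, and values without them are given beside the results they moved most. The tissue label, hepatocellular carcinoma, could be checked against the epithelial keratin Krt18, which had 22 to 7059 counts over the 32 libraries, and against Alb, the albumin gene of hepatocytes, which had 245 to 493757 counts. Within single groups Alb varied widely in some, with 245 to 54738 counts in the vehicle libraries of the DC-101 experiment. It varied little in others, with 105591 to 143758 counts in the vehicle libraries of the anti-PD1 experiment. Values of hepatocyte genes are given beside the high dose and anti-PD1 results.

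The alpha genes lie in a cluster on chromosome 11 (GRCm38, Hba-a1 at chr11:32283511-32284465 and Hba-a2 at chr11:32296489-32297298, both on the plus strand), and the beta genes on chromosome 7 (Hbb-bs at chr7:103826534-103828096 and Hbb-bt at chr7:103812524-103813996, both on the minus strand). Each of these genes has 3 exons. Alas2 (chrX:150547375-150570638, plus strand) has 11 exons in its first listed transcript and Slc4a1 (chr11:102348824-102366203, minus strand) has 20. The coding sequences of the alpha genes, 426 bases each, differ at 1 base (C381T, Hba-a1 first), and those of the beta genes, 441 bases each, also differ at 1 base (C417T, Hbb-bs first), with positions counted from the first base of the start codon. The 25 bases around each difference are shown because they are the only coding stretch by which a read can be given to 1 gene of a pair, and the capital letter marks the base that differs.
Hba-a1: tgcctctctggaCaaattccttgcc
Hba-a2: tgcctctctggaTaaattccttgcc
Hbb-bs: ggctggagtggcCgctgccctggct
Hbb-bt: ggctggagtggcTgctgccctggct
Of all stretches of 100 bases in the spliced transcripts, 43.5% in Hba-a1, 25.5% in Hba-a2, 37.4% in Hbb-bs and 45.2% in Hbb-bt occur in no other gene, against 100% in Alas2 and Slc4a1. The aligner counted reads with 1 placement, so the level of each globin gene and its split from its partner are uncertain. The summed counts of a pair miss the reads that fit both genes.

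Promoters of the globins and of Alas2 are shown as reference sequence, and their relation to the levels was not tested. The CACCC box, the CCAAT box, the letters TATAA of the TATA box and the letters GATAA that GATA factors bind are known from globin promoters, and they were searched for on both strands in the 250 bases before each start site in RefSeq (GRCm38.p6). Matches are in capitals, a match on the reverse strand being printed as its complement, and some matches adjoin or overlap in Hbb-bt and Alas2. Gencode lists transcripts of these genes that begin further upstream. The windows are chr11:32296242-32296491 for Hba-a2, chr7:103827929-103828178 for Hbb-bs, chr7:103813924-103814173 for Hbb-bt and chrX:150547167-150547416 for Alas2, each printed on the strand of its gene.
Hba-a2: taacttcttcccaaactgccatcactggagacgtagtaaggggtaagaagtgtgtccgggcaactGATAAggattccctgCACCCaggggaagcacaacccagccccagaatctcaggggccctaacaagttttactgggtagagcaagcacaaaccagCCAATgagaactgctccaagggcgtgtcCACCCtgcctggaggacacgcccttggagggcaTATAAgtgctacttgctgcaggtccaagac
Hbb-bs: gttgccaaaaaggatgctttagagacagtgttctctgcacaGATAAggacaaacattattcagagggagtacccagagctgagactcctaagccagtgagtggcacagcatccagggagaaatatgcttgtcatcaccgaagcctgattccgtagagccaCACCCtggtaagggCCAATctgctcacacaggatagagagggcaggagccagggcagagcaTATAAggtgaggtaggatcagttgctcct
Hbb-bt: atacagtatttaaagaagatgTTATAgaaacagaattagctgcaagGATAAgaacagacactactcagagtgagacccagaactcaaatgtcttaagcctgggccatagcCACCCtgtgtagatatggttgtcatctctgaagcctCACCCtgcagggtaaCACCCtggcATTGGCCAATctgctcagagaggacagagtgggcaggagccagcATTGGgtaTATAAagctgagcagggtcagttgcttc
Alas2: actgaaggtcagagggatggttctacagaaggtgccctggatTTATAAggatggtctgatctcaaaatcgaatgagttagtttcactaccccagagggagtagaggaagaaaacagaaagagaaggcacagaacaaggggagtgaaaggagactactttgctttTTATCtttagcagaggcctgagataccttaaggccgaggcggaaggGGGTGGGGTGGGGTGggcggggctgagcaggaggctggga
All 4 globin windows held all 4 words, which 0.968% of the 32851 mouse promoters of this length do (52.0% hold CACCC and 33.85% hold CCAAT, while 22.8% hold TATAA and 22.6% hold GATAA). The words were chosen because globin promoters are known to hold them, so this share is no test. In the globins, TATAA on the gene's own strand began 27 to 30 bases before the start. The Alas2 window held all of them but CCAAT, and its TATAA match on the gene's own strand began 207 bases before the start. The windows of Hba-a1 and Hba-a2 were identical over their 247 aligned bases, and those of Hbb-bs and Hbb-bt over 182 bases with 60 mismatched. A match is a description of these letters and not a bound site.

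Compared per length, in CPM (counts scaled to a common library total of 1 M) per kilobase of exon, Hbb-bs was the most abundant of the 6 genes, with a median of 160 over the 11 vehicle libraries (81.5 to 2081). Hba-a1 followed with a median of 55.5 CPM per kilobase (26.5 to 425), Hba-a2 with 31.8 (3.77 to 322) and Hbb-bt with 13.7 (5.88 to 133). Alas2 stood at 3.43 CPM per kilobase (2.43 to 39.4) and Slc4a1 at 0.156 (0.0252 to 0.866). The order Hbb-bs, Hba-a1, Hba-a2, Hbb-bt, Alas2, Slc4a1 was found in 21 of the 32 libraries. Hbb-bs was above Hba-a1, and Alas2 above Slc4a1, in 32 of 32 libraries each. The neighbours Hba-a2 and Hbb-bt changed places most often, with Hba-a2 higher in 24 of 32, and Hbb-bt was above Alas2 in 28. In 2 high dose libraries Alas2 ranked next to Hbb-bs. Over the 21 treated libraries the medians were 55.2 (13.1 to 174) for Hbb-bs, 18.8 (5.64 to 66.3) for Hba-a1, 8.06 (2.20 to 43.6) for Hba-a2, 4.63 (1.23 to 17.6) for Hbb-bt, 2.17 (0.343 to 68.8) for Alas2 and 0.0481 (0 to 0.385) for Slc4a1, all in CPM per kilobase.

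Hbb-bs, the main beta globin, had 127, 102, 119 and 387 CPM in the 4 vehicle libraries of the dose experiment, against 29.7, 29.1 and 105 CPM at the low dose and 53.9, 25.2 and 36.4 CPM at the high dose. All 3 high dose libraries lay below all 4 vehicle libraries, whereas 1 low dose library lay among them. In the DC-101 experiment, Hbb-bs had 1598, 108, 62.6 and 92.6 CPM with vehicle, 32.5, 15.6 and 134 CPM at the low dose and 62.4, 104 and 124 CPM with DC-101. Vehicle replicate 1 was 14.9-fold above the next vehicle library here, and both treated groups overlapped the other vehicle libraries. In the anti-PD1 experiment, Hbb-bs had 123, 328 and 436 CPM with vehicle, 55.2, 50.4 and 10.5 CPM at the low dose, 22.03, 23.4 and 111.8 CPM with anti-PD1 and 72.7, 10.1 and 42.4 CPM with both agents. Each of these treated libraries was below each vehicle library of this experiment.

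The alpha globin Hba-a1 had 45.1, 21.5, 45.6 and 147 CPM in the vehicle libraries of the dose experiment, 10.7, 11.1 and 40.5 CPM at the low dose and 19.9, 9.60 and 14.7 CPM at the high dose. The high dose again lay wholly below vehicle. With the DC-101 experiment's vehicle it had 345, 40.5, 24.1 and 35.5 CPM, against 19.3, 12.5 and 53.8 CPM at the low dose and 23.3, 37.8 and 46.2 CPM with DC-101. Vehicle replicate 1 was the highest library by far, and the others mixed with the treated ones. In the anti-PD1 experiment it had 33.0, 77.9 and 191 CPM with vehicle, 21.3, 11.8 and 4.58 CPM at the low dose, 5.00, 5.77 and 40.3 CPM with anti-PD1 and 35.2, 5.38 and 15.3 CPM with both agents. Only the low dose group lay wholly below vehicle for this gene. The partner genes were lower and followed the same libraries: Hba-a2 ranged from 2.51 to 215 CPM with vehicle and from 1.47 to 29.1 CPM in treated tumours, and Hbb-bt from 4.13 to 93.7 CPM and from 0.864 to 12.4 CPM. The plot of member levels shows every library.

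**Figure D1:**
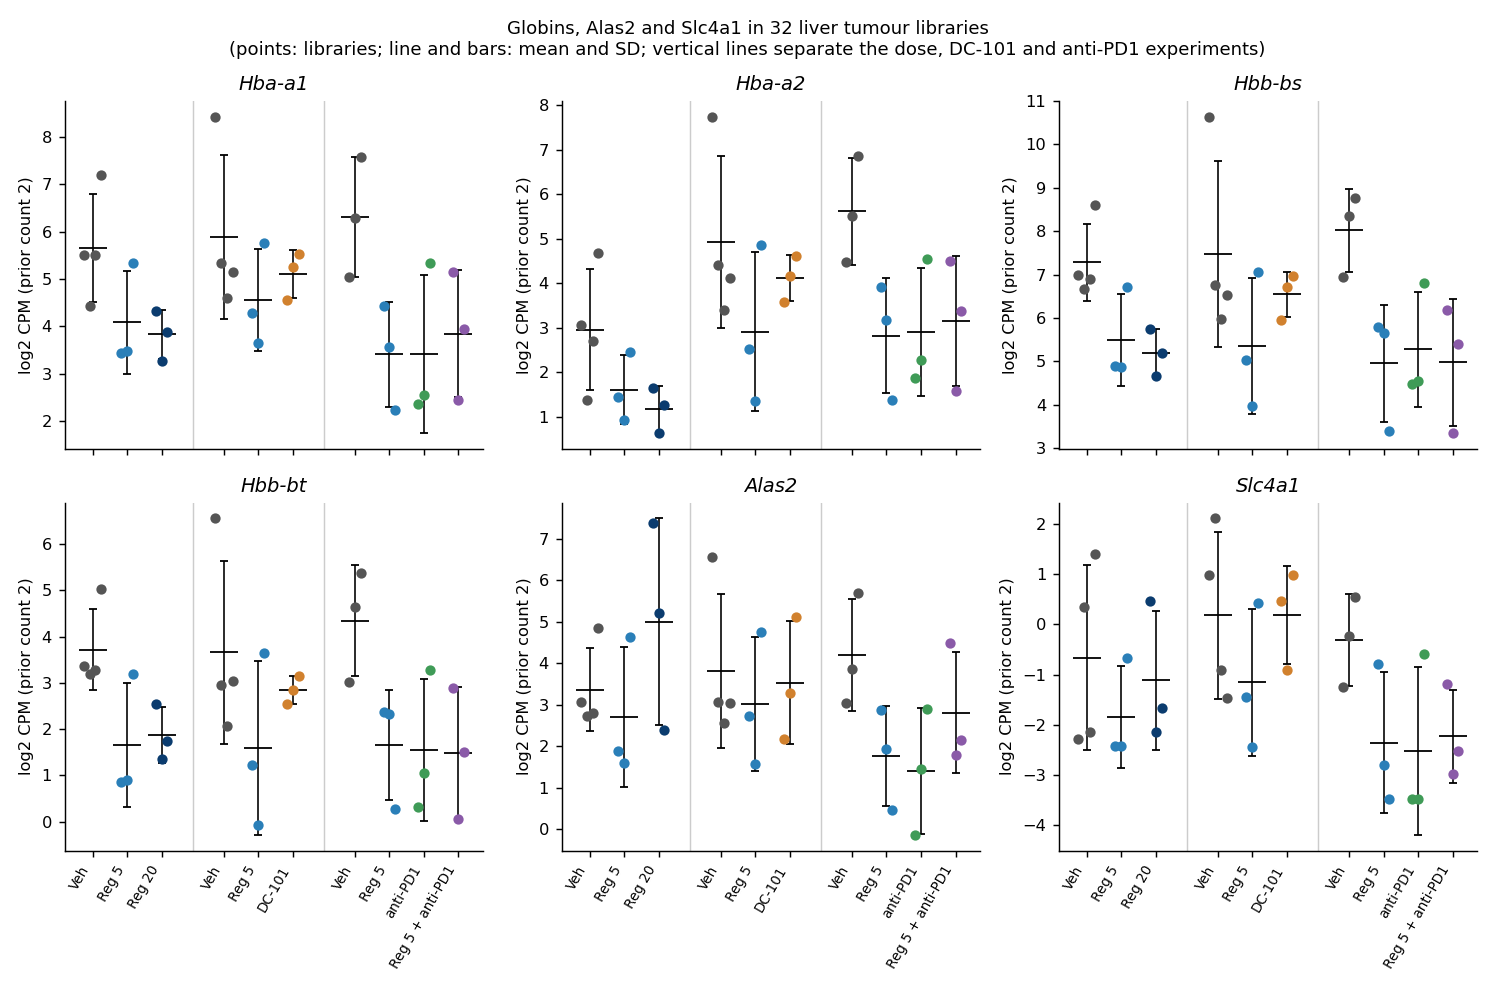
Level of each of the 6 genes in every library, in CPM after TMM scaling on a log axis, by group within each experiment; points are libraries and bars give the group mean ± SD. Vehicle replicate 1 of the DC-101 experiment (1598 CPM of Hbb-bs) stands above all other libraries, and Alas2 reaches its highest level, 165 CPM, in a high dose library.

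The first question was how the high dose changed these genes against vehicle. Hbb-bs fell by 2.25 on the log2 scale (SE 0.66, adjusted p = 0.0496, edgeR quasi-likelihood F-test with Benjamini-Hochberg adjustment over 16525 genes), and it was the only member past the threshold of 0.05. On the log2 CPM scale it had a mean of 7.287 ± 0.884 (SD, n = 4) with vehicle and 5.201 ± 0.548 (SD, n = 3) at the high dose. Among all genes 2582 passed this test, 15.6%, and 1127 of them (6.82%) were lower. The other globins had log2 differences of -2.14 (Hba-a1, SE 0.74, adjusted p = 0.067), -2.23 (Hba-a2, SE 0.76, adjusted p = 0.0642) and -2.01 (Hbb-bt, SE 0.75, adjusted p = 0.0799). The median over the 4 globins was -2.19, and that over all genes tested was 0.02. At an unadjusted p under 0.05 stood 4 members (the globins) and 40.1% of all genes. All 3 high dose libraries lay below all 4 vehicle libraries for 3 members (Hba-a1, Hbb-bs and Hbb-bt), and the same was true of 16.6% of all genes. The call of Hbb-bs was lost on leaving out any 1 of the 7 libraries compared, and without vehicle replicate 4 its log2 difference was -1.59, and those of the other globins were -1.33 to -1.34. Scaling by total counts gave it an adjusted p of 0.0626. DESeq2 called 5 members, the 4 globins as lower and Alas2 as higher. The share of all genes that DESeq2 called at the high dose is not given here.

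At the low dose no member passed the threshold in any experiment by edgeR. In the dose experiment the log2 differences were -1.64 (Hba-a1), -1.70 (Hba-a2), -1.75 (Hbb-bs, SE 0.65) and -1.87 (Hbb-bt), with adjusted p-values of 0.962 to 0.998 over the 6 members. Single libraries moved these values by over 1.5 times: in the same order they were -0.85, -0.81, -1.08 and -1.20 without vehicle replicate 4, and without low dose replicate 3 the largest in size was -3.11 (Hbb-bt). Here 0% of the genes were called by edgeR and 0 by limma-voom, 85 by DESeq2 (none of them a member), and 4 members and 4.94% of all genes had an unadjusted p under 0.05. In the DC-101 experiment the log2 differences at the low dose were -1.96, -2.42, -2.94 (Hbb-bs, SE 1.36, adjusted p = 0.313) and -2.47 in the same order of genes, with 0.0248% of the genes called (0.0124% lower) and 0 members at an unadjusted p under 0.05, against 17.1% of all genes. These were -0.23, -0.40, -0.53 and -0.37 without vehicle replicate 1, and -2.80, -4.03, -4.27 and -4.19 without low dose replicate 3. Against the vehicle of the anti-PD1 experiment the low dose gave -2.9975, -2.80, -2.93 (Hbb-bs, SE 0.91, adjusted p = 0.269) and -2.74, with 0% of the genes called by edgeR or limma-voom and 5 members (all but Slc4a1) at an unadjusted p under 0.05, against 11.8% of all genes. DESeq2 called 3 members there (Hba-a1, Hba-a2 and Hbb-bs) among 435 genes. All low dose libraries were below all vehicle libraries for 5 members in the anti-PD1 experiment, where 7.36% of the genes were so, and for 0 members in the dose experiment (6.99%) and the DC-101 experiment (9.48%).

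Over all 3 experiments, in a fit with the experiment as a term (11 vehicle and 9 low dose libraries), the low dose differences were -2.15 for Hba-a1 (SE 0.58, adjusted p = 0.0647), -2.29 for Hba-a2 (SE 0.65, adjusted p = 0.0779), -2.51 for Hbb-bs (SE 0.65, adjusted p = 0.0553) and -2.34 for Hbb-bt (SE 0.65, adjusted p = 0.0705), all by edgeR. No member passed, while 1.77% of all 15562 genes did (1.04% lower), and 5 members and 16% of all genes had an unadjusted p under 0.05. DESeq2 called 4 members among 892 genes and limma-voom called 1 (Hbb-bs) among 305. Without the 2 vehicle libraries that stood apart, the Hbb-bs difference was -1.49 (adjusted p = 0.181) and those of the other globins were -1.32 to -1.43. Whether the low dose difference varied between the experiments was tested as an interaction, and no member passed (adjusted p 0.862 to 0.999 by edgeR). Of all genes 0% were called there by edgeR and 0 by limma-voom, 96 by DESeq2 (no member), and 0 members and 9.52% of all genes had an unadjusted p under 0.05.

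DC-101, which blocks VEGFR2 from outside the cell, gave log2 differences of -1.64 (Hba-a1), -1.87 (Hba-a2), -2.26 (Hbb-bs, SE 1.32, adjusted p = 0.467) and -1.98 (Hbb-bt) against vehicle. No member was called by edgeR, DESeq2 or limma-voom and 0 had an unadjusted p under 0.05, where edgeR called 0% of the genes and 13.2% had an unadjusted p under 0.05. No member was below vehicle in every library, against 8.19% of all genes. These differences rest on vehicle replicate 1: without it they were 0.10, 0.15, 0.15 and 0.12. The 2 comparisons share their vehicle libraries. DC-101 against low dose regorafenib directly gave 0.68 for Hbb-bs (SE 1.31, adjusted p = 0.95) with overlapping groups, while 5.48% of the genes had every DC-101 library below every low dose library. Here edgeR called 0% of the genes, with 0 members and 8.45% of all genes at an unadjusted p under 0.05 and 187 genes, no member among them, called by DESeq2.

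Anti-PD1 gave log2 differences of -2.56 (Hba-a1), -2.54 (Hba-a2), -2.49 (Hbb-bs, SE 0.89, adjusted p = 0.279) and -2.55 (Hbb-bt), and the combination -2.43, -2.37, -2.82 (Hbb-bs, SE 0.90, adjusted p = 0.483) and -2.75 in the same order. Hepatocyte genes were lower than in every vehicle library at the low dose and with anti-PD1, but not with the combination: their mean log2 level was 7.64 to 8.16 in the 3 vehicle libraries, 4.33 to 7.37 at the low dose, 4.23 to 5.95 with anti-PD1 and 6.39 to 9.53 with the combination. With that level as a covariate the anti-PD1 differences were -0.87, -0.72, -0.91 and -0.66, the low dose ones -1.94, -1.73, -2.09 and -1.65, and those of the combination -2.38, -2.29, -2.73 and -2.76. The part of hepatocyte RNA in these differences was not tested beyond this fit. The anti-PD1 difference of Hba-a1 was -4.22 without anti-PD1 replicate 3 and -1.70 without vehicle replicate 3, and that of Hbb-bs -3.70 and -2.10. Without vehicle replicate 3 the Hba-a1 difference of the combination was -1.57. No member passed in either comparison by edgeR, DESeq2 or limma-voom, and edgeR called 0% of the genes in each. At an unadjusted p under 0.05 stood 5 members with anti-PD1 (13.7% of all genes) and 4 with the combination (8.2%). Every anti-PD1 library was below every vehicle library for 2 members, Hbb-bs and Alas2 (9.2% of all genes), and every combination library for 2, Hbb-bs and Hbb-bt (8.12%). The 3 treated groups of this experiment share 3 vehicle libraries. Set directly against anti-PD1 alone, the combination gave -0.33 for Hbb-bs (SE 0.85, adjusted p = 0.919) with 0% of the genes called by edgeR and 8.68% at an unadjusted p under 0.05, and high against low dose in the dose experiment gave -0.51 (SE 0.66, adjusted p = 0.612) with 4.22% called and 2.48% called lower. Both of these changed sign when single libraries were left out.

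Library by library, each of the 4 globins was below the mean log2 CPM of its own vehicle group in 21 of 21 treated libraries. The median deviation was -1.88 for Hba-a1, -1.71 for Hba-a2, -2.36 for Hbb-bs and -2.03 for Hbb-bt. Alas2 was below in 15 of 21 and Slc4a1 in 17 of 21. The globins kept close to each other across libraries and treated groups share vehicle means, so these counts are not independent. The share of all genes with such counts is not given here. These vehicle means include the 2 high libraries. Without them the globins were below in 17 or 18 of 21, and with DC-101 in 1 of 3 for every member.

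**Figure D2:**
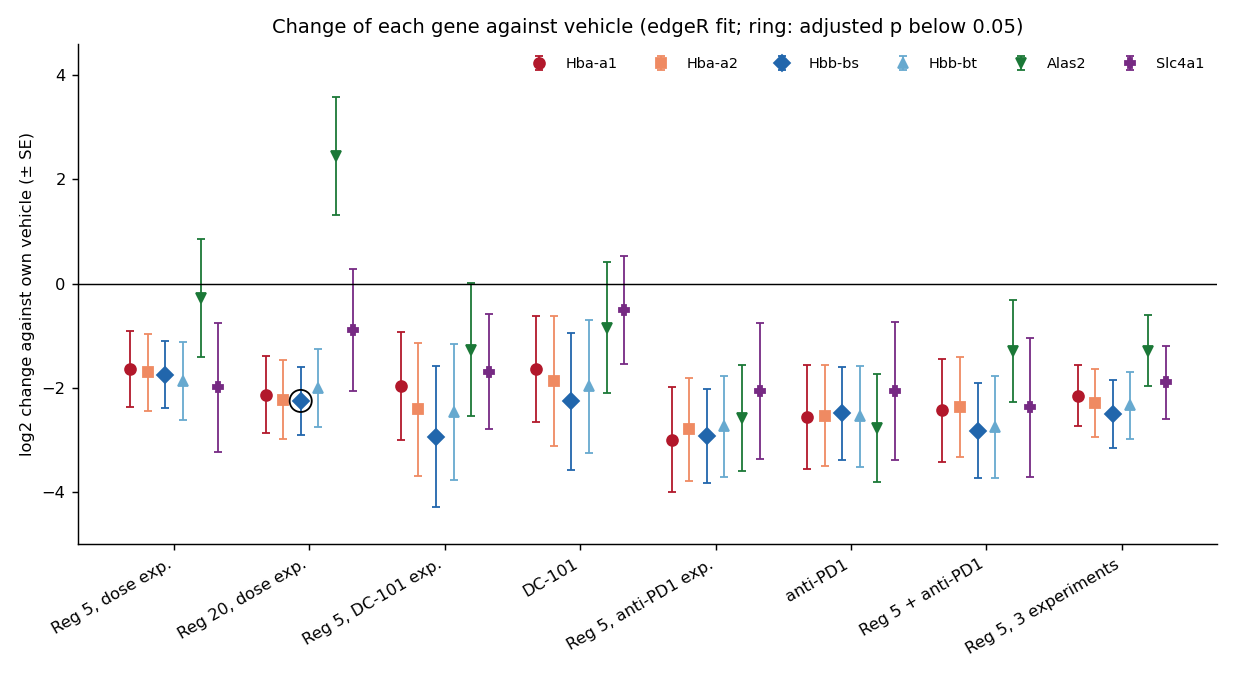
Log2 difference of each of the 6 genes (treated minus vehicle of the same experiment, ± SE of the edgeR fit) in each comparison; a ring marks an adjusted p under 0.05. The 4 globins have negative values in all comparisons with vehicle, 1 ring is drawn (Hbb-bs at the high dose, -2.25), and Alas2 is positive at the high dose (2.45).

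Alas2, the enzyme that sets the pace of haem synthesis in red cell precursors, parted from the globins at the high dose. It had 8.35, 6.57, 6.86 and 28.8 CPM in the vehicle libraries of the dose experiment, 3.60, 2.93 and 24.8 CPM at the low dose and 165, 37.2 and 5.21 CPM at the high dose. Both of the highest values belonged to high dose libraries, while the third of that group lay below every vehicle library. The log2 difference at the high dose was 2.45 (SE 1.14, adjusted p = 0.14, edgeR), which did not pass. DESeq2 called it higher (2.49, adjusted p = 0.0478), and limma-voom did not (1.47, adjusted p = 0.391). Left out one at a time, the libraries moved it from 0.74 to 3.25, and it passed without high dose replicate 3 (2.92, adjusted p = 0.0487). Alas2 in the DC-101 experiment had 94.6, 8.23, 5.83 and 8.09 CPM with vehicle, 6.54, 2.87 and 27.0 CPM at the low dose and 4.45, 9.73 and 34.6 CPM with DC-101. In the anti-PD1 experiment it had 8.19, 14.4 and 51.6 CPM with vehicle, 7.27, 3.76 and 1.30 CPM at the low dose, 0.825, 2.67 and 7.38 CPM with anti-PD1 and 22.3, 3.37 and 4.39 CPM with both agents. There the low dose and anti-PD1 groups lay wholly below vehicle and the combination did not. The log2 differences outside the high dose were -0.28, -1.27 and -2.58 at the low dose (dose experiment first, then DC-101, then anti-PD1), -0.85 with DC-101, -2.77 with anti-PD1 and -1.30 with the combination. With the hepatocyte covariate the anti-PD1 value was -0.49 and the low dose value of that experiment -1.09. Without vehicle replicate 3 of that experiment anti-PD1 gave -1.64, the low dose -1.45 and the combination -0.17, and without its own replicate 1 the combination gave -2.66. In the DC-101 experiment, leaving out vehicle replicate 1 gave 0.71 at the low dose and 1.13 with DC-101, and without vehicle replicate 4 of the dose experiment the low dose gave 0.52. None of these passed, nor did the difference over all 3 low dose experiments (-1.29, SE 0.69, adjusted p = 0.378), which was -0.64 when vehicle replicate 1 of that same DC-101 experiment was left out and -0.36 without both vehicle libraries that stood apart.

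The high dose libraries with much Alas2 RNA also held much RNA of hepatocyte genes. The summed level of 20 hepatocyte genes was 131305 CPM, 27016 CPM and 4705 CPM in high dose replicates 1, 2 and 3, in the same order as Alas2, and 1701 to 10528 CPM in the 4 vehicle libraries. All 20 hepatocyte genes had positive differences at the high dose (median 4.10), and 2 passed the test. In a fit with the mean log2 level of the hepatocyte genes as a covariate, the Alas2 difference was -1.05 and that of Hbb-bt was -3.07 (adjusted p = 0.0436). The part of liver tissue in the Alas2 values was not tested beyond this fit.

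Slc4a1, the red cell anion exchanger, was close to the limit of counting. In the dose experiment its counts were 3, 21, 4 and 65 with vehicle, 3, 3 and 14 at the low dose and 23, 4 and 6 at the high dose. The DC-101 experiment gave 43, 108, 9 and 6 with vehicle, 6, 2 and 22 at the low dose and 30, 10 and 35 with DC-101. The anti-PD1 experiment gave 8, 15 and 31 with vehicle, 13, 1 and 0 at the low dose, 0, 0 and 12 with anti-PD1 and 8, 1 and 2 with both agents. The groups overlapped in every comparison. The log2 differences ran from -2.38 (combination) to -0.51 (DC-101), no value passed, and over the 3 low dose experiments the difference was -1.89 (SE 0.70, adjusted p = 0.176). Single libraries moved these values far: with anti-PD1 the difference was -2.06, and -7.22 without anti-PD1 replicate 3, which leaves 2 libraries at 0 counts, so that the fitted value is no bound. At the low dose of that experiment it was also -2.06, and -4.75 without low dose replicate 1, and for the combination -3.65 without its replicate 1. In the DC-101 experiment the low dose gave -0.71 without vehicle replicate 2 and -3.19 without low dose replicate 3. In the dose experiment it gave -0.895 without vehicle replicate 4 and -3.18 without low dose replicate 3. The values at the high dose and with DC-101 changed sign on leaving out single libraries. At this depth a difference could not be told from the spread between libraries, and the highest vehicle library of the DC-101 experiment for Slc4a1 was replicate 2 and not replicate 1, which was highest for the globins.

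The ratio of globin to Alas2 counts puts these patterns side by side within libraries. It was 20.5 to 26.3 in the vehicle libraries of the dose experiment, 6.46 to 14.9 at the low dose and 0.50, 1.04 and 10.9 at the high dose, so the treated groups did not overlap vehicle there. The DC-101 experiment had 17.4 to 23.8 with vehicle, 8.49 to 10.98 at the low dose and 5.90 to 23.2 with DC-101, so that the low dose lay below vehicle and DC-101 overlapped it. In the anti-PD1 experiment it was 15.2 to 33.1 with vehicle, 13.3 to 20.2 at the low dose, 13.5 to 38.5 with anti-PD1 and 5.73 to 16.1 with both agents, so the groups overlapped. These ratios are given as a description, without a test.

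**Figure D3:**
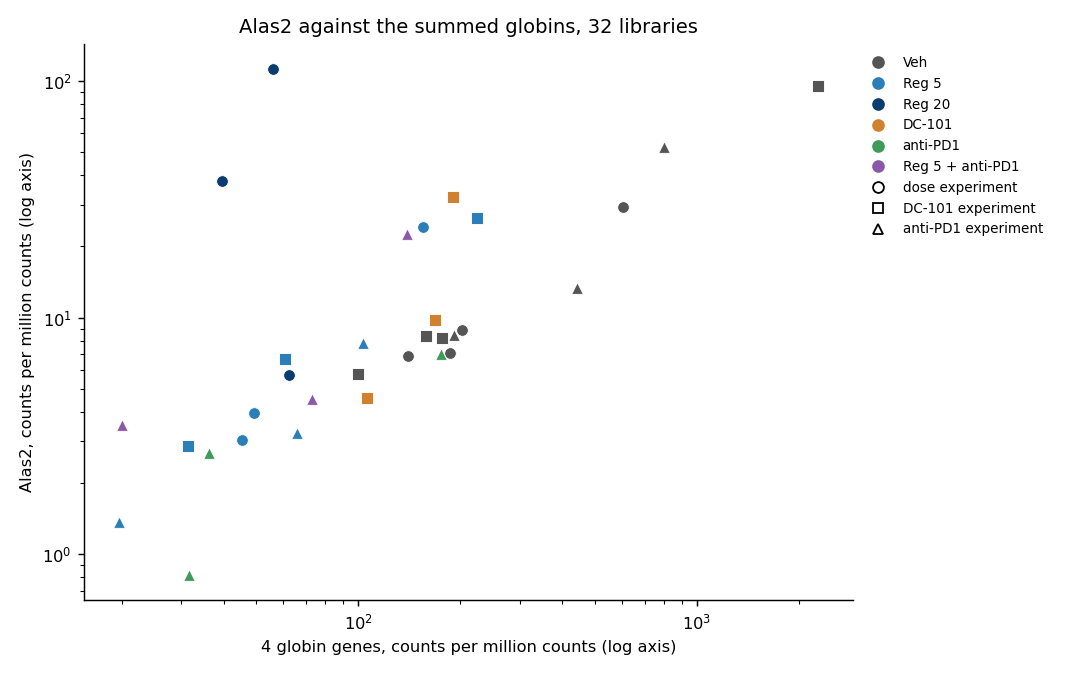
Alas2 against the summed 4 globins in 32 libraries, both as counts per M of the library's total on log axes, with colours for treatments and symbols for experiments. Most libraries lie along 1 band, and 2 high dose libraries lie above it, with 0.50 and 1.04 globin counts per Alas2 count.

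Of the gene copies, Hba-a2 took a different share of the alpha counts in the dose and anti-PD1 experiments. It made up 10.5% to 19.8% of them in the 10 libraries of the dose experiment, 16.4% to 38.4% in the 10 of the DC-101 experiment and 35.2% to 45.2% in the 12 of the anti-PD1 experiment. The dose and anti-PD1 experiments did not overlap in this share. Within the DC-101 experiment the low dose libraries had 22.5% (exact 95% binomial interval 19.1 to 26.3), 16.4% (12.6 to 20.9) and 35.1%, and the other libraries 30% or more. The intervals cover counting error only, since the reads carry no molecular identifiers. Hbb-bt made up 5.02% to 9.65% of the beta counts over all 32 libraries, with all experiments overlapping. Alpha counts per beta count were 0.217 to 0.429 in the dose experiment, 0.331 to 0.906 in the DC-101 experiment and 0.351 to 0.753 in the anti-PD1 experiment. Each experiment has its own batch in the labels, so batch and experiment cannot be told apart, and the share of Hba-a2 rests on the few stretches that tell the alpha genes apart.

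**Figure D4:**
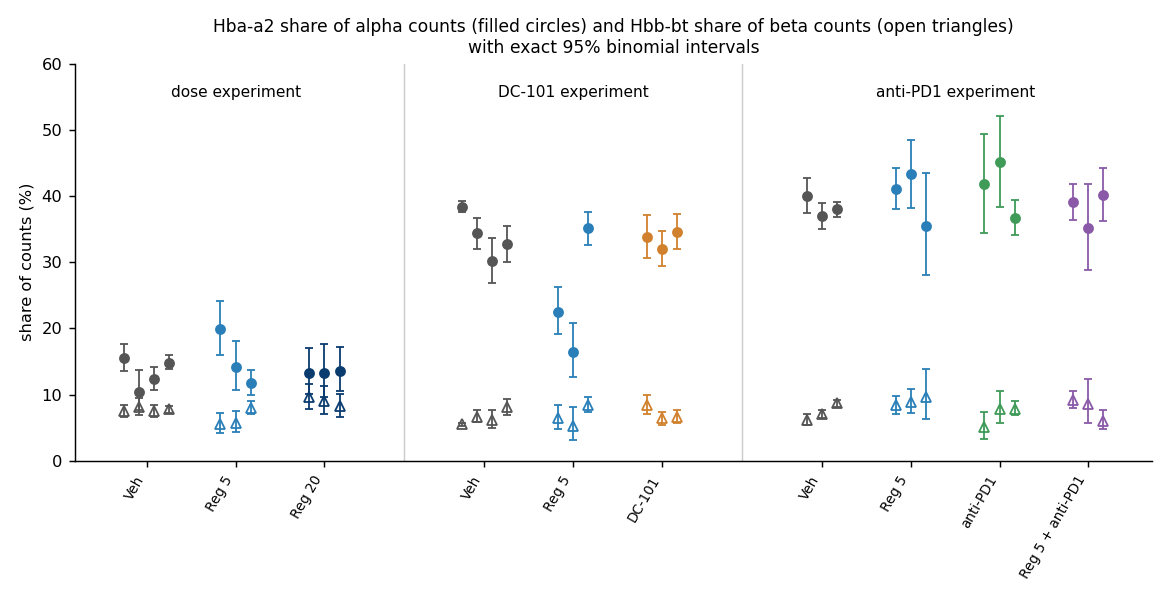
Share of Hba-a2 in alpha counts (filled circles) and of Hbb-bt in beta counts (open triangles) in each library, in percent, with exact 95% binomial intervals. Hba-a2 lies at 10.5% to 19.8% in the dose experiment and at 35.2% to 45.2% in the anti-PD1 experiment, while Hbb-bt stays between 5.02% and 9.65%.

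Several other defining genes of red cell precursors were at or near 0. Epb42, which links band 3 to the skeleton, had 0 to 8 counts over the 32 libraries, and Rhag, a Rhesus complex channel, 0 to 4. The transcription factors Gata1 and Klf1, which drive erythroid genes, had 0 to 7 and 1 to 27 counts. The embryonic genes were also low, with 0 to 29 counts of Hba-x and 0 to 8 of Hbb-bh1. Car1, a carbonic anhydrase of red cells, had 0 to 189 counts, with its highest values of 189 and 48 in the 2 high dose libraries that were highest in Alas2. Others were present in every library: Ermap had 4 counts or more (median 39), Tal1, a transcription factor of blood precursors and endothelium, 30 to 207, and Epor, the erythropoietin receptor, 43 to 127.

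The pathway lists around the members are read against the share of all genes called, which was 15.6% at the high dose and 1.77% over the low dose experiments. Of 13 haem synthesis genes, 0 passed over the 3 low dose experiments by edgeR (3 at an unadjusted p under 0.05, median log2 difference 0.10). At the high dose 2 rose, Alas1, the form of the first enzyme used outside red cells (2.09, adjusted p = 0.0457), and Ppox, which acts late in the pathway (0.98, adjusted p = 0.0313), a share close to the 15.6% of all genes. There all 13 had positive differences with a median of 0.98, against 0.02 over all genes. With the hepatocyte covariate the Alas1 difference was 0.58 (adjusted p = 0.425). Among red cell membrane and skeleton genes, 13 of 20 were tested at the high dose. The complement inhibitor Cd59a rose (2.401, adjusted p = 0.0456, and 0.45 with the hepatocyte covariate, which did not pass), and Ermap, an erythroid membrane protein (-2.10, adjusted p = 0.0143), and Add2, a skeleton adducin (-1.91, adjusted p = 0.0386), fell. Left out 1 at a time, the 7 libraries ended each of these calls in some fits: Alas1, Cd59a and Add2 passed in 1 of 7, Ppox in 3 of 7 and Ermap in 4 of 7. At the low dose 0 of 12 passed over the 3 experiments by edgeR (2 at an unadjusted p under 0.05).

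Of the late erythroid and reticulocyte genes, 17 were tested at the high dose. Cat, the catalase gene (3.93, adjusted p = 0.0449), rose and Bpgm, which makes the red cell metabolite that lowers the oxygen affinity of haemoglobin (-1.12, adjusted p = 0.0228), fell. With the hepatocyte covariate the Cat difference was 0.50 and did not pass, and with 1 library left out Cat passed in 1 of 7 fits and Bpgm in 2 of 7. Of the erythroid transcription genes, Lmo2, which is also expressed in endothelium, rose over the low dose experiments (0.58, SE 0.13, adjusted p = 0.0219), 1 of 7 tested. It passed in 7 of 12 other settings, and missed the threshold without any 1 of the 3 experiments (adjusted p 0.0695 to 0.248), without both vehicle libraries that stood apart (0.0521) and with a replicate block (0.0806). Among these genes 0 of 7 passed at the high dose by edgeR, none of them at an unadjusted p under 0.05. Of 14 genes that handle free haem and haemoglobin, 0 passed at the low dose by edgeR (5 at an unadjusted p under 0.05), Hmox1, the haem oxygenase that breaks haem down, having a difference of -0.92 (adjusted p = 0.154). At the high dose 1 rose, the haem transporter Slc48a1 (0.60, adjusted p = 0.0347), which passed in 2 of 7 fits with 1 library left out.

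Markers of other cells in blood and vessels moved beside the globins in part. Of 16 endothelial genes, 10 fell over the 3 low dose experiments, among them Cldn5, a junction protein (-2.45, adjusted p = 0.000115), Sox17, an arterial transcription factor (-1.74, adjusted p = 9.82e-05), the VEGF receptor Flt1 (-1.61, adjusted p = 0.000158) and Emcn, a venous and capillary sialomucin (-1.39, adjusted p = 0.00325). The mean log2 level of the endothelial list was 3.88 to 5.29 in the 11 vehicle libraries and 2.47 to 3.78 in the 9 low dose libraries. At the high dose 3 of 16 fell (Emcn, Cldn5 and Flt1), each passing in 2 of 7 fits with 1 library left out. Of the platelet and megakaryocyte genes, 0 of 6 passed over the low dose experiments by edgeR (1 at an unadjusted p under 0.05). At the high dose Pf4, a platelet chemokine, fell (-1.04, adjusted p = 0.0496), 1 of 7 tested, and passed in 1 of 7 fits with 1 library left out. The hepatocyte genes had 20 of 20 positive differences over the low dose experiments (median 1.46) with 0 called by edgeR and 3 at an unadjusted p under 0.05. Of 12 macrophage genes, 10 fell at the high dose (median log2 difference -1.35), and their mean log2 level was 5.499 to 6.66 there against 7.05 to 7.65 with vehicle, without overlap. Over the low dose experiments 2 of these 12 rose. Of 8 tumour cell or epithelial genes, 3 rose at the high dose (Cdh1, Krt7 and Krt19), and their mean log2 level was 4.97 to 6.26 against 3.65 to 4.35 with vehicle, also without overlap. Their summed level, most of it from Spp1 (osteopontin, median 724 CPM at the high dose and 1842 CPM with vehicle), went the other way, with 889 to 1700.5 CPM at the high dose and 1538 to 3563 CPM with vehicle, and these ranges overlapped. Over the low dose experiments 0 of the 8 passed by edgeR (1 at an unadjusted p under 0.05). The part of vessels, blood content, macrophages, tumour cells or liver tissue in the globin values was not tested.

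Across libraries the globins kept close to each other. On deviations of log2 CPM from the group means over 32 libraries, Hbb-bs correlated with Hbb-bt at r = 0.98 (rho 0.98), with Hba-a2 at 0.97 (rho 0.96) and with Hba-a1 at 0.96 (rho 0.96). For each of these the permutation p within groups, adjusted over 10 relations, was 2.5e-05 for r and for rho, the smallest the permutations could give. Without the 2 farthest libraries r was 0.98, 0.95 and 0.96. With Alas2 r was 0.82 (rho 0.82, both with an adjusted permutation p of 2.5e-05), 0.78 without the 2 farthest libraries, and 0.71, 0.94 and 0.85 within the 3 experiments in the order dose, DC-101, anti-PD1. With Slc4a1 r was 0.67 (adjusted permutation p = 0.00088, rho 0.68, 0.00036), and 0.69 without those libraries. Genes in 1 library share its depth and tissue content, and the paralogs are nearly identical in sequence.

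Outside the members, Pf4 correlated with Hbb-bs at r = 0.68 (rho 0.62, adjusted permutation p = 0.00128 and 0.00533), at 0.60 without the 2 farthest libraries and at 0.31, 0.79 and 0.70 within the 3 experiments. Hmox1 gave r = 0.56 (rho 0.50, adjusted permutation p = 0.013 and 0.0292), which was 0.47 without those libraries and 0.04 within the dose experiment, where the relation did not hold. S100a8, a neutrophil gene, gave r = 0.51 (rho 0.47, adjusted permutation p = 0.0186 and 0.0255), 0.36 without those libraries and 0.12 within the dose experiment. The endothelial gene Pecam1 gave r = 0.03 (rho 0.10, adjusted permutation p = 0.861 and 0.628), and Alb, the hepatocyte gene, r = 0.15 (rho 0.38, adjusted permutation p = 0.688 and 0.0588). On deviations from experiment means, which keep the differences between groups, r was 0.40 for Pecam1. No other gene of the endothelial list was among these relations, so Pecam1 does not stand for that list. For Alb, r was 0.67 within the dose experiment, -0.09 within the DC-101 experiment and 0.80 within the anti-PD1 experiment.

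Genes whose levels were like the mean log2 CPM of the 4 globins were ranked by Pearson's r over the 32 libraries, centred within experiments, among 15425 genes. Among those with the highest values were Pf4 (r = 0.77), Slc4a1 (0.75), Lyve1, a hyaluronan receptor of lymphatic and liver sinusoidal endothelium (0.73), Alas2 (0.71) and Gpihbp1, a capillary protein that binds lipoprotein lipase (0.69). Gmeb2 (0.68), Tfec (0.65), Ednrb, an endothelin receptor (0.65), and Cd163, the macrophage receptor for haemoglobin bound to haptoglobin (0.65), were also among them. Alas2 reached 0.90 within the DC-101 experiment and 0.90 within the anti-PD1 experiment but 0.25 within the dose experiment, which holds the high dose libraries. These values include the differences between groups and are a description.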

How the data were processed

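RNA of tumour tissue (frozen per the labels, fresh per the study's methods) was made into stranded, polyA-selected libraries and sequenced as read pairs (2×100 bases). The authors trimmed adapters with cutadapt 2.4, aligned to GRCm38 with STAR 2.7.2a and Gencode M19, and deposited STAR's raw counts of uniquely placed reads per gene for each library. Which strand column was taken is not given in the sources used here. From the deposited counts, libraries were scaled by TMM after filterByExpr (at least 10 counts, 15 in total), and genes were tested with edgeR 4.0.16 (R 4.3.3, robust quasi-likelihood F-test, 2-sided), all groups of an experiment together, with Benjamini-Hochberg adjustment over all genes and a threshold of 0.05. Low dose against vehicle was also fitted over 3 experiments with the experiment as a term. CPM are TMM-scaled, and log2 CPM had a prior count of 2. Groups and replicate numbers came from the labels.

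The 6 members and the 14 gene lists were chosen with earlier results of these data known. Members were named throughout, list genes where they passed the test or marked a cell type, and the genes most like the globins by rank. Of 54446 identifiers, 54409 matched the annotation, and 172 of 173 list entries were found. Relations between genes were tested by permuting libraries within groups (100000 permutations). Alternatives were other scalings, no filter, another prior count, DESeq2 1.42.0, limma-voom (limma 3.58.1), only the groups compared, summed paralogs, a replicate block, a hepatocyte covariate and leaving out single libraries. Leaving out both vehicle libraries that stood apart was chosen after seeing the data. The fits were tested on simulated data. Same-group libraries were checked for duplicates (36 pairs, none found). The authors' normalized values were not used here. Some genes of the lists and of the ranking are not reported here.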

Additional observations from a re-analysis of the deposited data

Results flagged for a closer look

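In the vehicle groups of 4 libraries, 7 of 20 tests found a library whose gap to its nearest neighbour exceeded Dixon's 95% critical value, where chance flags about 1 in 20 single tests. The tests used related measures on the same 2 groups and are not independent, so the 2 shares are not compared. In the dose experiment, vehicle replicate 4 stood above the other vehicle libraries in Hbb-bs (8.60 log2 CPM, others 6.67 to 6.98), Hbb-bt (5.03, others 3.19 to 3.37) and Alas2 (4.85, others 2.73 to 3.08). In the DC-101 experiment, vehicle replicate 1 stood above the others in Hbb-bs (10.64 log2 CPM, others 5.97 to 6.75) and Alas2 (6.57, others 2.57 to 3.06). The ratio of alpha to beta counts was low in vehicle replicate 2 of the dose experiment (0.217, others 0.390 to 0.410) and in vehicle replicate 1 of the DC-101 experiment (0.331, others 0.517 to 0.536).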

How the results depend on the processing

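At the high dose 1 member passed, and 0 passed with median-ratio scaling (Hbb-bs adjusted p = 0.0509), total-count scaling (0.0626), no filter (0.0884), limma-voom (0.057), only the groups compared (0.076) and a replicate block (-1.63, adjusted p = 0.192). DESeq2 called 5 there (the globins lower, Alas2 higher) and the hepatocyte covariate 2 (Hbb-bs and Hbb-bt, lower). The shares of all genes called in these 2 settings are not given here. Leaving out 1 library gave 0 to 1 member (Hbb-bs at -2.54 to -1.59, adjusted p 0.0574 to 0.116). Of all genes, the 2582 called at the high dose became 282 with total-count scaling, 416 without the filter, 4 with only the groups compared, 1 with the replicate block and 15 to 7030 on leaving out 1 library. At the low dose DESeq2 called 3 members in the anti-PD1 experiment and 4 over the 3 experiments, where total-count scaling and limma-voom called 1 each and leaving out 1 library gave 0 to 3 (Hbb-bs at -2.85 to -1.73). With the replicate block, Alas2 at the low dose of the dose experiment was 0.31 and Slc4a1 at the high dose 0.24. With the hepatocyte covariate Alas2 was -1.05 at the high dose and -0.93 for the combination against anti-PD1 (1.47 without it), and Slc4a1 was 0.35 with anti-PD1. The same covariate gave Alas2 -1.76 at the low dose of the dose experiment and -1.52 with DC-101. It gave Slc4a1 -3.23 at the high dose and -0.64 at the low dose of the anti-PD1 experiment.

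Values that changed sign on leaving out 1 library are given by their range. Alas2 ran from -1.93 to 0.52 at the low dose of the dose experiment, from -2.63 to 0.71 at the low dose of the DC-101 experiment, and from -0.79 to 1.78 for DC-101 against the low dose. Slc4a1 ran from -2.34 to 0.20 at the high dose. With DC-101 the ranges were -1.97 to 0.099 (Hba-a1), -2.22 to 0.15 (Hba-a2), -2.63 to 0.15 (Hbb-bs), -2.34 to 0.12 (Hbb-bt), -2.05 to 1.13 (Alas2) and -0.97 to 0.47 (Slc4a1), the highest without vehicle replicate 1 (Slc4a1: replicate 2). Hbb-bs ran from -0.84 to 0.38 for high against low dose (highest without low dose replicate 3) and from -0.997 to 0.88 for the combination against anti-PD1. The cause was not tested. With paralogs summed, the beta sum at the high dose was -2.23 (adjusted p = 0.0508). Same-numbered libraries did not deviate together (correlation above 0.1 in 2 of 9, 4 of 9 and 6 of 18 pairs), so the numbers were not taken as pairs. Depth limits Slc4a1 and the precursor markers, and gene copies limit the split of the globin pairs.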

Other observations

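Hba-x, the embryonic zeta globin that lies just upstream of Hba-a1, had 11 to 29 counts in all 10 libraries of the DC-101 experiment, 0 counts in all 10 of the dose experiment and 0 in 11 of the 12 of the anti-PD1 experiment (1 count in vehicle replicate 3). Within the DC-101 experiment its log2 difference was 0.49 (SE 0.32, adjusted p = 0.430, edgeR) at the low dose and 0.15 (SE 0.32, adjusted p = 0.868) with DC-101. These counts did not follow the adult globins, which spanned 692 to 51345 summed counts in the same libraries. The values are given as measured, and their source was not tested.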
